A study of Mus musculus with 8 samples.

Results

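The genes described here carry membrane between the compartments of the cell: the Rab, Arf and Arl small GTPases and the Vps, Snx, Trappc, Cop and Tbc1d families that act with them. Members were the protein-coding genes whose GENCODE M21 symbol starts with one of those prefixes, leaving out the Cops signalosome subunits, and whose row in the deposited table has the same chromosome, start, end and strand. The rule gave 35 members among the 2372 rows of the table. The annotation holds 244 protein-coding genes with such names.

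Transcripts of the medial prefrontal cortex (mPFC) were sequenced in 8 naive adult male mice on a C57Bl/6J background. The CaKO group, 4 mice of genotype CamK2A-Cre;Gpr158flox/flox, had the floxed gene of the orphan receptor GPR158 and a Cre recombinase driven by the CamK2A promoter, which is active in forebrain excitatory neurons. The control group, 4 littermates of genotype Gpr158flox/flox, had the same floxed alleles and no Cre. The series asks which molecular changes accompany a shortage of glutamate vesicles after loss of the receptor from glutamatergic neurons.

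A small GTPase switches between a GTP-bound form, which sits on a membrane and recruits effectors, and a GDP-bound form. Exchange factors load GTP, and GTPase-activating proteins, among them the Tbc1d family for Rabs, end the signal. Rabs give each compartment its identity, Arfs and Arls recruit coats and motors, sorting nexins and retromer return cargo from endosomes, the Vps proteins of the HOPS, CORVET and ESCRT complexes tether endosomes and sort cargo to lysosomes, and the TRAPP complexes activate Rabs at the Golgi. In neurons this traffic supplies axons and dendrites with vesicle precursors, receptors and lysosomes.

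The table holds normalised read counts (reads divided by 1 factor per library) for the 4 CaKO libraries, and from the authors the log2 fold change of CaKO over control, its p and its adjusted p. Only genes with an unadjusted p below 0.05 have a row, so every member passed that threshold to be seen at all. The remaining 207 of the 244 genes have no row, and 2 more, Arl3 and Tbc1d24, matched an annotated gene by overlap only. No value of a single control library was analysed here, so whether single libraries of the groups overlap is not shown. The control level implied by the CaKO mean and the fold change is given in their place, without an error. It lay outside the range of the 4 CaKO values for 90.6% of the members in the authors' adjustment. Over all genes of the table in that adjustment the share was 94.5%. Because a row required a low p, this position is largely set by that selection and adds no support to a change. Over the rows of the table the CaKO libraries held 2832931 to 3183638 reads, their total depth is unknown, and no row overlapped Gpr158, so the labels were not checked against the targeted gene. In whole tissue, fewer cells of a type and less RNA per cell cannot be told apart.

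Few of these genes passed the adjusted threshold, and the changes were small. Of the 35 members, 32 entered the authors' adjustment over 12938 genes and 3 weakly expressed Rabs did not. Per the authors' deposited table, at an adjusted p below 0.05, 2 members rose in CaKO (the sorting nexin Snx17 and the Rab GTPase-activating protein Tbc1d17) and 1 fell (the late endosomal Rab9). These 3 calls are 1.23% of the 244 annotated genes, against 3.24% called among all genes in the adjustment (1.27% risen and 1.97% fallen). At an adjusted p below 0.1 there were 9 members, 5 higher and 4 lower, against 5.19% of all genes (2.13% and 3.06%), and below 0.01 there was none, against 1.09%. Members with an unadjusted p below 0.05 came to 13.1% of the annotated genes, against 15.8% of all genes in the adjustment. With Arl3 and Tbc1d24 counted, 1.64% of the 244 were called and 13.9% had such a p. The number of the 244 that entered the adjustment is not known, so these shares are lower bounds, and how the share among tested genes compares with the background was not determined.

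Higher and lower members were mixed. Of the 32, 19 were higher and 13 lower per the authors' deposited table. Their log2 fold changes had a median of 0.24, while 45.1% of all listed genes were higher and their median was -0.22. These shares describe genes already selected by their p and were not tested. Sizes were alike: per the authors' deposited table the absolute log2 fold change had a median of 0.35 (1.27-fold) over the members and 0.34 over all listed genes. A single member in the adjustment, Rab2b, exceeded 1.5-fold (the authors' deposited table).

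**Figure D1:**
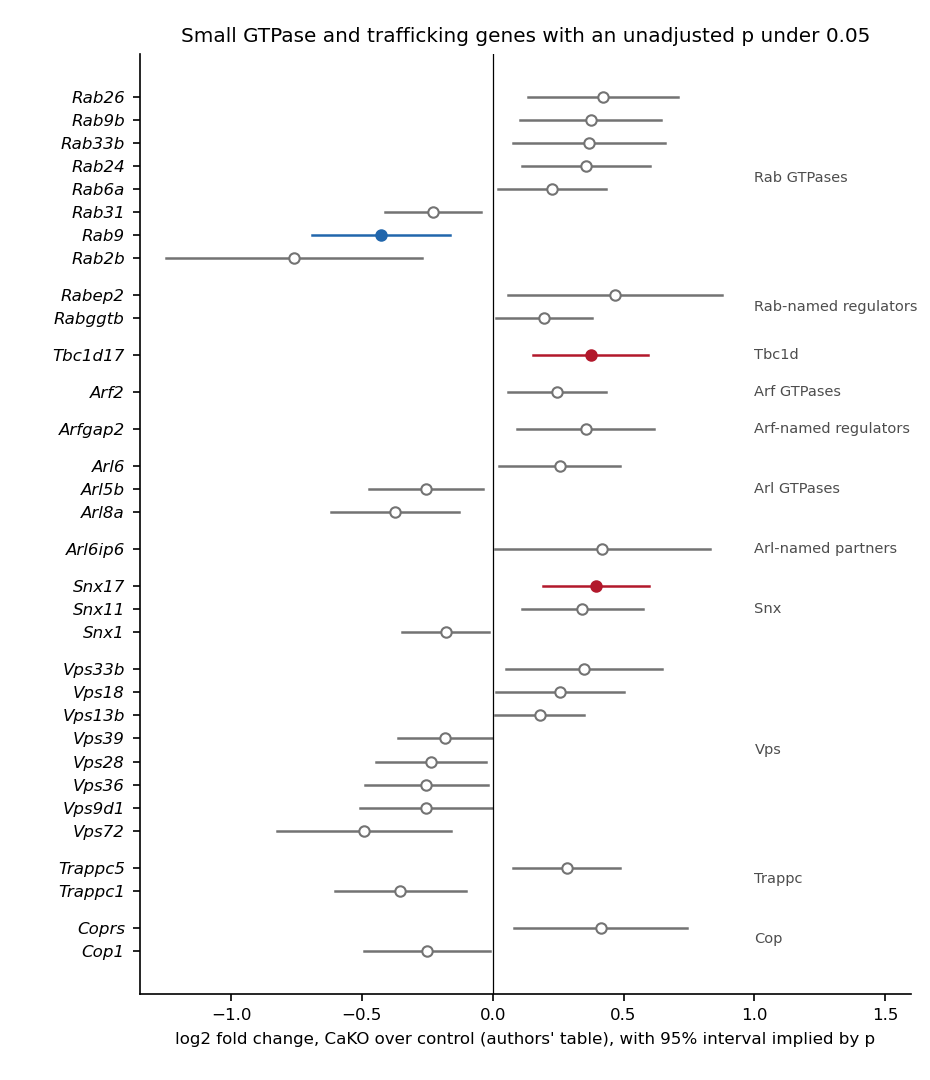
Log2 fold change of CaKO over control from the authors' deposited table for the 32 members in the adjustment, by family, with the 95% interval implied by the p if it comes from a Wald test. Filled points are the 3 calls at an adjusted p below 0.05 (Snx17 and Tbc1d17 in red, Rab9 in blue), and open points did not pass.

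Among the sorting nexins, which bind phosphoinositides on endosomes, Snx17 had the smallest p of all members. SNX17 returns receptors such as the lipoprotein receptor LRP1 and integrins from early endosomes to the cell surface. Snx17 (chromosome 5: 31193227 to 31199143, GRCm38) stood at 932, 1013, 1239.7 and 1034 normalised counts in CaKO replicates 1 to 4. All 4 libraries lay above the control level of 802 implied by the fold change, and replicate 3 was the highest. The mean was 1055 ± 131 (SD, n = 4), and Snx17 rose 1.32-fold (log2 fold change 0.40, implied SE 0.10, adjusted p = 0.0118, from the authors' deposited table). Without CaKO replicate 3 its log2 fold change became 0.31 and the call ended, whereas it held without each of the others.

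Snx11 and Snx1 did not pass. Snx11, a sorting nexin made of little more than its lipid-binding domain, stood at 374, 457, 392 and 415 normalised counts in replicates 1 to 4. Each of these lay above the implied control level of 323, at a log2 fold change of 0.34 (the authors' deposited table, adjusted p = 0.0808). Snx1, part of the tubule-forming coat that works with retromer, averaged 682 ± 36.7 (SD, n = 4), with a log2 fold change of -0.18 (the authors' deposited table, adjusted p = 0.265). The other 27 annotated Snx genes have no row, nor does any of the 4 core retromer genes (Vps26a, Vps26b, Vps29 and Vps35).

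Tbc1d17 encodes a GTPase-activating protein for Rabs. Tbc1d17 (chromosome 7: 44834623 to 44849079) stood at 492, 631, 579 and 647 normalised counts in CaKO replicates 1 to 4, all above the implied control level of 453. It rose 1.3-fold (log2 fold change 0.37, implied SE 0.11, adjusted p = 0.0357, from the authors' deposited table). The gene Il4i1 covers 35.2% of its exon sequence on the opposite strand. Whether strand was used in counting is not given in the sources used here, so reads of the pair may be mixed. The call ended without CaKO replicate 2 (log2 fold change 0.34), replicate 3 (0.38) or replicate 4 (0.32). The lower precision of 3 libraries alone, with the fold change unaltered, also ended it. Tbc1d17 was the only member among 30 annotated Tbc1d genes. Tbc1d24, tied to synaptic vesicle traffic and epilepsy, matched its annotated gene by overlap only. It averaged 2260.3 ± 185 normalised counts (SD, n = 4), with a log2 fold change of 0.19 (the authors' deposited table, adjusted p = 0.244).

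The Rab GTPases held 11 members out of 59 annotated genes, 8 of them in the adjustment. Their log2 fold changes ran from -0.76 to 0.42 in the authors' deposited table, 5 higher and 3 lower, with Rab9 the only call. Rab9, which brings mannose 6-phosphate receptors back from late endosomes to the Golgi (X chromosome: 166457253 to 166479867), stood at 262, 305, 206 and 273 normalised counts in CaKO replicates 1 to 4. Every library lay below the implied control level of 352, replicate 3 the farthest. The mean was 261 ± 41.2 (SD, n = 4), and Rab9 fell to 74.4% of control (log2 fold change -0.43, implied SE 0.13, adjusted p = 0.0484, from the authors' deposited table). This adjusted p is close to the threshold. The call ended without CaKO replicate 1 (log2 fold change -0.43), replicate 3 (-0.33) or replicate 4 (-0.45), and also through the lower precision of 3 libraries alone.

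The close relative of Rab9 on the same chromosome lay on the other side of 0. Rab9b (X chromosome: 136858147 to 136868755) stood at 650.3, 620.2, 749.6 and 549 normalised counts in CaKO replicates 1 to 4. All lay above the implied control level of 495, at a log2 fold change of 0.38 (the authors' deposited table, adjusted p = 0.109), which did not pass. Per kilobase of exon both stood at a like level in CaKO, 149 normalised counts for Rab9 and 161 for Rab9b. The difference between their fold changes was not tested. Rab7, the main Rab of late endosomes, has no row. Its relative Rab7b averaged 12.9 ± 2.71 normalised counts (SD, n = 4) and was left out of the adjustment.

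The region before the start site is shown for 2 GTPases of late endosomes and lysosomes that were lower in CaKO, Rab9 and Arl8a. Of these, Rab9 passed and Arl8a did not (adjusted p = 0.0685, from the authors' deposited table). The called members Snx17 and Tbc1d17 have no promoter entry or a region that lies within the exon of a neighbouring gene. Sequences are from RefSeq, build GRCm38.p6, 5′ to 3′ on the gene's strand, and end before the start site of the deposited table. The Rab9 stretch is chrX:166479868-166480117 on the minus strand and the Arl8a stretch is chr1:135146584-135146823 on the plus strand. Capitals mark the letters GGGCGG, read on both strands, a common element of promoters rich in G and C. In Arl8a a pair of matches overlaps and forms a single run.
Rab9: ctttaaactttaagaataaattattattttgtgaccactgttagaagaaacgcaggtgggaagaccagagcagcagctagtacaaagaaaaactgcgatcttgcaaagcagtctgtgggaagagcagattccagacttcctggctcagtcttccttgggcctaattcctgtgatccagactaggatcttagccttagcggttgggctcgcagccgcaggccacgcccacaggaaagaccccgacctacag
Arl8a: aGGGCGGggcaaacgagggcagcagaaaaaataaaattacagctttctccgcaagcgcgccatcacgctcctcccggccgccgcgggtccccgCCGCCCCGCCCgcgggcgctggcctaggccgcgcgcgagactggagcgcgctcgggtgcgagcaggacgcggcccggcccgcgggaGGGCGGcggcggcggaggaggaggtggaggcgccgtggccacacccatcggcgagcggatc

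These promoters differ in base composition: G and C make up 48.8% of the Rab9 stretch and 75% of that of Arl8a, which holds 4 matches to GGGCGG where Rab9 holds none. RefSeq had promoter entries for 24 of the 35 members, 30 entries in all. In the 250 bases before the start, 73.3% of those 30 hold GGGCGG on either strand, against 55.3% of the 2020 entries of listed genes and 32.7% of all 32851 entries. The letters CACGTG, the core of the element read by the lysosomal regulator TFEB, occur in 6.67% of the member entries (those of Arl5b and Trappc5), 8.86% of those of listed genes and 6.02% of all. The letters CCGGAAG, the core of sites for ETS factors, on either strand occur in 20% of the member entries, 11.4% of those of listed genes and 6.91% of all. By gene, 18 of the 24 members with an entry hold GGGCGG, 2 hold CACGTG and 6 hold CCGGAAG. Such matches describe letters only, genes with several entries count more than once in the shares, and the shares were not tested.

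Rabs of the Golgi were represented by Rab2b, Rab6a, Rab33b and Rab43. Rab2b, which acts between the endoplasmic reticulum and the Golgi, had the largest change of any member in the adjustment but was weakly expressed. It stood at 57.3, 29.1, 37.8 and 53.1 normalised counts in CaKO replicates 1 to 4, all below the implied control level of 75.04. The authors' deposited table gave it a log2 fold change of -0.76 (implied SE 0.25, adjusted p = 0.0633), and Gm43766 covers 59.3% of its exon sequence on the opposite strand. Rab6a, which drives retrograde transport to and through the Golgi, was by far the most abundant member, at 12476 ± 1573 normalised counts (SD, n = 4). Its log2 fold change was 0.23 (the authors' deposited table, adjusted p = 0.25), and the implied control level of 10654 lay within the range of the CaKO libraries, of which replicate 4 was the lowest at 10399. Rab33b, a Golgi Rab that also binds the autophagy protein ATG16L1, averaged 531 ± 71.3 (SD, n = 4), with a log2 fold change of 0.37 (the authors' deposited table, adjusted p = 0.162).

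Rab24 and Rab26, a Rab of autophagic compartments and a Rab found on synaptic vesicles and secretory granules, were on the higher side without passing. Rab26 stood at 437, 339.7, 560.7 and 499 normalised counts in CaKO replicates 1 to 4. Replicate 2 lay just under the implied control level of 343 and the other libraries above it, at a log2 fold change of 0.42 (the authors' deposited table, adjusted p = 0.088). Rab24 stood at 391, 350.7, 349.9 and 336 normalised counts, all above the implied 279, at a log2 fold change of 0.36 (the authors' deposited table, adjusted p = 0.0899). Prelid1, which covers 62.4% of the exon sequence of Rab24 on the opposite strand, itself rose by a log2 fold change of 0.33 (the authors' deposited table, adjusted p = 0.0166). Its mean was 1783 normalised counts, against 357 for Rab24, and how far its reads enter the Rab24 value was not tested. Rab31, which acts between the Golgi and endosomes, averaged 948 ± 86.8 (SD, n = 4), with a log2 fold change of -0.23 (the authors' deposited table, adjusted p = 0.175).

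Several Rabs that are well known at synapses have no row. None of Rab3a, Rab3b, Rab3c, Rab3d, Rab27a and Rab27b, which act on synaptic and secretory vesicles, was listed. The same holds for 7 Rabs of early and recycling endosomes (Rab4a, Rab4b, Rab5a, Rab5b, Rab5c, Rab11a and Rab11b). Absence from the table says only that no unadjusted p below 0.05 is listed for a gene, which does not show that it was unaltered. Rab42 and Rab43, outside the adjustment, averaged 17.8 ± 13.8 and 25.9 ± 12.2 normalised counts (SD, n = 4), so their spread was large beside their level. Gm45140 covers 75.4% of the exon sequence of Rab43 on the same strand.

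The proteins that modify or bind Rabs gave 2 members out of 23 annotated. Rabggtb encodes the catalytic subunit of the enzyme that attaches the lipid anchor to Rabs, and averaged 626 ± 43.1 normalised counts (SD, n = 4). Its log2 fold change was 0.20 (the authors' deposited table, adjusted p = 0.27). Rabep2, an effector of Rab5, averaged 106 ± 20.4 (SD, n = 4), with a log2 fold change of 0.47 (the authors' deposited table, adjusted p = 0.227). None of the 5 Rab11fip genes, whose products link Rab11 to recycling, has a row.

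**Figure D2:**
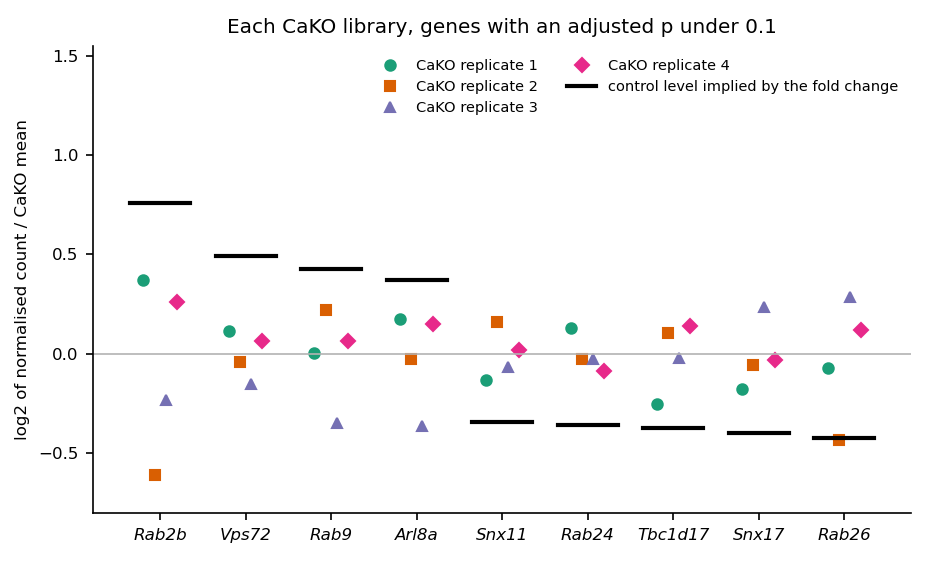
Value of each CaKO library divided by the CaKO mean of the gene, on a log2 scale, for the 9 members with an adjusted p below 0.1; points are the 4 libraries and the bar is the control level implied by the authors' fold change. The bar lies outside the CaKO libraries for every gene but Rab26, and replicate 3 is the library farthest from it for Vps72, Rab9, Arl8a, Snx17 and Rab26. These genes were selected by their p, and such a level lay outside the CaKO libraries for 94.5% of all listed genes.

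Among Arl GTPases the lysosomal Arl8a was lower and did not pass. ARL8 couples lysosomes and synaptic vesicle precursors to kinesin for transport along the axon. Arl8a (chromosome 1: 135146824 to 135156269) stood at 1823, 1582, 1253 and 1790.2 normalised counts in CaKO replicates 1 to 4. All libraries lay below the implied control level of 2089, and replicate 3 was the lowest. The authors' deposited table gave it a log2 fold change of -0.37 (implied SE 0.12, adjusted p = 0.0685), and its paralogue Arl8b has no row. Arl5b, an Arl of the trans-Golgi, averaged 639.9 ± 64.4 (SD, n = 4), with a log2 fold change of -0.25 (the authors' deposited table, adjusted p = 0.213). Arl6, the GTPase that brings the BBSome to cilia, averaged 476 ± 43.5 (SD, n = 4), with a log2 fold change of 0.26 (the authors' deposited table, adjusted p = 0.251).

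Arl3 lies outside the members because the ends of its row differ from those in GENCODE M21. It was identified by overlap with the annotated gene, from which its name was taken. ARL3 releases lipid-modified cargo inside cilia. Its row (chromosome 19: 46531109 to 46573085) stood at 402, 455, 327 and 486 normalised counts in CaKO replicates 1 to 4, with a mean of 417 ± 69.4 (SD, n = 4). It fell to 61.7% of control (log2 fold change -0.70, implied SE 0.16, adjusted p = 0.00208, from the authors' deposited table). Its adjusted p was below those of all 35 members. The call held with each CaKO library left out, at log2 fold changes from -0.78 to -0.60. With Arl3, 4 of the 244 annotated genes passed (1.64%, against 3.24% of all genes in the adjustment).

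The Arf GTPases, which recruit coats to the Golgi and endosomes, were represented by Arf2 out of 6 genes. Arf2 averaged 827 ± 47.0 normalised counts (SD, n = 4), with a log2 fold change of 0.25 (the authors' deposited table, adjusted p = 0.138). Arfgap2, a GTPase-activating protein for Arf1 on Golgi membranes, stood at 376, 409.8, 422 and 546 normalised counts, replicate 4 being the highest. The authors' deposited table gave it a log2 fold change of 0.35 (adjusted p = 0.12). Arfgap2 has a near-identical copy, Gm15519, and 1110051M20Rik covers 33.4% of its exon sequence on the opposite strand. No exchange factor of the Arfgef group has a row. Arl6ip6, a partner of Arl6, averaged 161 ± 16.7 (SD, n = 4), with a log2 fold change of 0.42 (the authors' deposited table, adjusted p = 0.303).

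**Figure D3:**
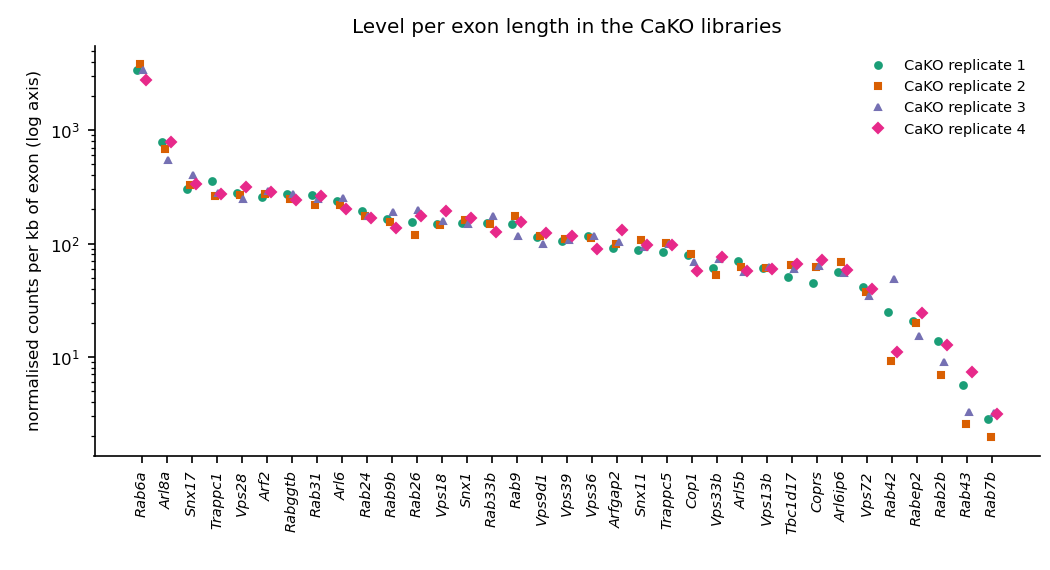
Normalised counts per kilobase of exon in each of the 4 CaKO libraries (log axis) for the 35 members, ordered by their mean. Rab6a leads at 3347 per kilobase, Arl8a follows at 701 and Rab7b is the lowest at 2.79.

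Vps genes were the family with the most members for its size, 8 of 35 annotated (22.9%, against 15.8% of all genes in the adjustment). None passed, against 3.24% of all genes in the adjustment, and the difference between these shares was not tested. The 8 include Vps72, which does not act in membrane traffic. Subunits of the same complex did not always share a direction. Vps18, a core subunit of both HOPS and CORVET, averaged 769.9 ± 105 normalised counts (SD, n = 4), with a log2 fold change of 0.26 (the authors' deposited table, adjusted p = 0.284). Vps39, specific to HOPS, averaged 944 ± 39.2 (SD, n = 4), with a log2 fold change of -0.18 (the authors' deposited table, adjusted p = 0.308). The other 5 of the 7 subunits checked (Vps8, Vps11, Vps16, Vps33a and Vps41) have no row. Vps33b, a relative of a HOPS subunit that works in a separate complex, averaged 227 ± 36.4 (SD, n = 4), with a log2 fold change of 0.35 (the authors' deposited table, adjusted p = 0.207).

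Of the 7 Vps-named subunits of ESCRT-I and ESCRT-II, 2 have a row, both lower without passing. Vps28 of ESCRT-I averaged 639.9 ± 65.8 normalised counts (SD, n = 4), with a log2 fold change of -0.24 (the authors' deposited table, adjusted p = 0.242). Vps36 of ESCRT-II stood at 429, 416, 428 and 328 normalised counts in CaKO replicates 1 to 4, so that replicate 4 lay apart. Its log2 fold change was -0.25 (the authors' deposited table, adjusted p = 0.263). Vps13b, a lipid transfer protein of the Golgi, stood at 1291 ± 19.6 (SD, n = 4). Relative to its mean it varied least of all members (coefficient of variation 1.52%). Its log2 fold change was 0.18 (the authors' deposited table, adjusted p = 0.275). Vps9d1, named for a domain of Rab exchange factors, averaged 582 ± 50.7 (SD, n = 4), with a log2 fold change of -0.25 (the authors' deposited table, adjusted p = 0.311).

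The TRAPP complexes gave Trappc1 and Trappc5, both subunits of the shared core, on opposite sides of 0. Trappc1 stood at 399, 295, 308 and 304 normalised counts in CaKO replicates 1 to 4, replicate 1 lying apart, with a log2 fold change of -0.35 (the authors' deposited table, adjusted p = 0.105). Trappc5 averaged 475 ± 39.4 (SD, n = 4), with a log2 fold change of 0.28 (the authors' deposited table, adjusted p = 0.114). The other 13 Trappc genes have no row, and neither has any of the 8 coatomer genes that start with Cop, which build the COPI coat.

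The name rule also took in 3 genes that do not act in membrane traffic. Vps72 encodes a subunit of complexes that exchange histone variants. Vps72 stood at 151, 135, 125 and 146 normalised counts in CaKO replicates 1 to 4, all below the implied control level of 196, at a log2 fold change of -0.49 (the authors' deposited table, adjusted p = 0.0829). Cop1, a ubiquitin ligase with near-identical copies elsewhere in the genome, had a log2 fold change of -0.25 (the authors' deposited table, adjusted p = 0.282). Coprs, a cofactor of an arginine methyltransferase, had one of 0.41 (the authors' deposited table, adjusted p = 0.17). Without them 18 trafficking genes were higher and 11 lower in the adjustment.

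One library moved with many of these values. Of the 13 lower members, 7 had their lowest CaKO value in replicate 3, and of the 19 higher members, 8 had their highest there. Replicate 3 likewise gave the lowest value for 60% of all lower listed genes and the highest for 49.2% of all higher ones. Without CaKO replicate 3 none of the 3 called members kept its call by the approximation used (adjusted threshold carried over as an unadjusted p of 0.00162). The log2 fold change then was 0.31 for Snx17 (0.40 with all libraries), 0.38 for Tbc1d17 (0.37) and -0.33 for Rab9 (-0.43). For Tbc1d17 and Rab9 the lower precision of 3 libraries alone ended the call, so its loss does not single out replicate 3.

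Other genes of membrane traffic came from 11 lists of 285 genes without the prefixes above. Of these, 35 (12.3%, against 15.8% of all genes in the adjustment) had an unadjusted p below 0.05 in the authors' deposited table, 14 higher and 21 lower. The median log2 fold change of the 35 was -0.23, against -0.22 over all listed genes. At an adjusted p below 0.05, 1 rose and 5 fell, and these 6 calls are 2.11% of the 285 genes, against 3.24% of all genes (1.27% risen and 1.97% fallen). The shares of the 285 are lower bounds too.

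SNAREs, the proteins that fuse vesicles with their targets, shared a list with the SM and tethering proteins that act with them. Of its 41 genes, 3 were listed. Stx1a, the syntaxin of the presynaptic membrane, stood at 4350 normalised counts in replicate 1, 3496 in replicate 2, 2529 in replicate 3 and 3576 in replicate 4. It fell to 72.8% of control (log2 fold change -0.46, adjusted p = 0.0479, from the authors' deposited table). Stx4a, a syntaxin of the plasma membrane, fell to 69.1% of control (log2 fold change -0.53, adjusted p = 0.0378, from the authors' deposited table). The endosomal syntaxin Stx12 did not pass, at 0.26 (the authors' deposited table, adjusted p = 0.125).

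The list of clathrin and adaptor complexes, which also holds adaptors of the Golgi and endosomes, had 8 of 39 genes listed, 7 of them lower. These 8 are 20.5% of the list, against 15.8% of all genes in the adjustment (8.68% lower and 7.14% higher). The lower genes include Ap1m1, Gga1 and Ap3b1, so they are not a set of endocytic genes. The call was Ap2s1, the small subunit of the plasma membrane adaptor AP-2, at 1285, 1144, 854 and 1350.5 normalised counts in replicates 1 to 4. Ap2s1 fell to 74% of control (log2 fold change -0.44, adjusted p = 0.0415, from the authors' deposited table). Another subunit of the same adaptor, Ap2a2, had a log2 fold change of 0.26 (the authors' deposited table, adjusted p = 0.13).

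Of the remaining lists, 3 held a call. The presynaptic Rab3 effector Rims1 fell to 78.4% of control (log2 fold change -0.35, adjusted p = 0.0235, from the authors' deposited table). Among Rab regulators 4 of 42 genes were listed. Map1lc3a, an LC3 protein of autophagosomes, fell to 66.4% of control (log2 fold change -0.59, adjusted p = 0.0357, from the authors' deposited table), while its relative Map1lc3b had a log2 fold change of 0.26 (adjusted p = 0.118). The autophagy list had 4 of 31 genes listed. Chmp7, an ESCRT-III-like protein, rose 1.23-fold (log2 fold change 0.29, adjusted p = 0.0492, from the authors' deposited table). The ESCRT list had 5 of 21 genes listed, 3 higher and 2 lower.

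The calls in these lists were close to the threshold. With the precision of 3 CaKO libraries and the fold changes unaltered, 5 of the 6 ended and Rims1 held. All 6 ended without CaKO replicate 2, where log2 fold changes moved by less than 0.05: Stx1a -0.46, Stx4a -0.51, Ap2s1 -0.43, Rims1 -0.31, Map1lc3a -0.57 and Chmp7 0.31. All 6 also ended without CaKO replicate 3, where Stx1a, Stx4a, Ap2s1, Rims1 and Map1lc3a had log2 fold changes of -0.33, -0.48, -0.31, -0.32 and -0.41, and Chmp7 0.25. Stx4a also ended without replicate 1, and Stx1a and Chmp7 without replicate 4.

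The other lists held no call. The v-ATPase that acidifies vesicles and lysosomes had 4 of 18 genes listed, 2 higher and 2 lower. The smallest p was that of Atp6v1a at a log2 fold change of 0.27 (the authors' deposited table, adjusted p = 0.0981). The largest change was that of Atp6v0c at -0.64 (the authors' deposited table, adjusted p = 0.216). WASH and retriever, the partners of SNX17 in recycling, had 3 of 17 listed, 2 higher and 1 lower, led by Commd8 at 0.38 (the authors' deposited table, adjusted p = 0.0543). Arf regulators had 2 of 31 listed, led by Agap2 at -0.29 (the authors' deposited table, adjusted p = 0.278). COPII had 1 listed gene, Sar1a at 0.22 (the authors' deposited table, adjusted p = 0.157). The list of golgins and Golgi tethering complexes also had 1, the COG subunit Cog2 at 0.26 (the authors' deposited table, adjusted p = 0.2). The exocyst had 0 of 9.

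**Figure D4:**
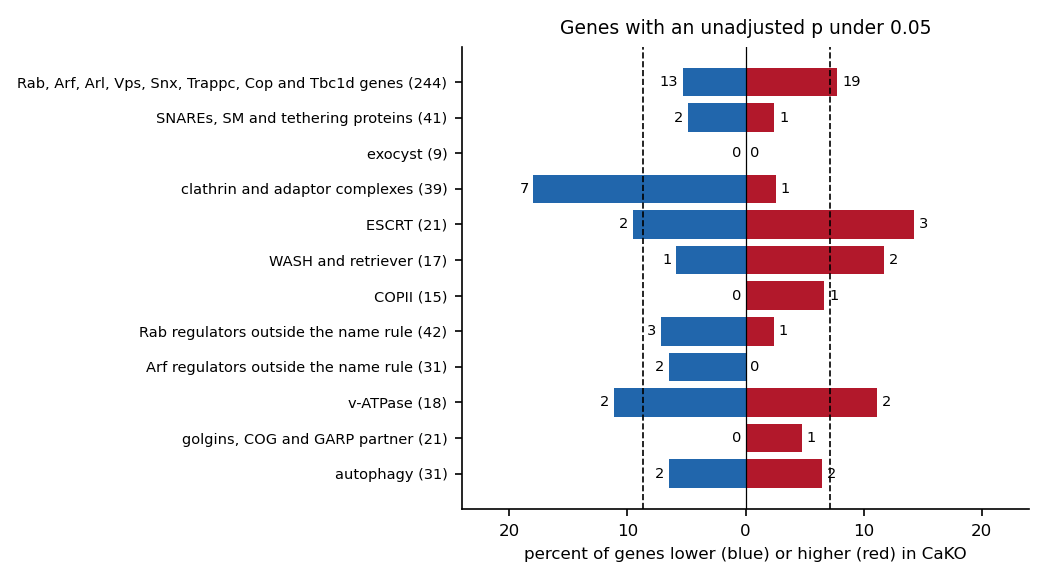
Share of the annotated genes with an unadjusted p below 0.05 that were lower (blue, left) or higher (red, right) in CaKO, for the prefix families together and for 11 lists of other trafficking genes; numbers beside bars are gene counts and numbers in brackets are list sizes. Dashed lines mark the share of all 12938 genes, 8.68% lower and 7.14% higher; clathrin and its adaptors reach farthest to the lower side, with 7 of 39 genes.

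Markers of cell types were lower more often than higher. Of 49 markers, 25 had an unadjusted p below 0.05 in the authors' deposited table, 24 lower and 1 higher. Over all genes in the adjustment 15.8% had such a p, 8.68% lower and 7.14% higher. At an adjusted p below 0.05, 13 of the 49 fell and 0 rose, against 1.97% and 1.27% of all genes in the adjustment. The marker lists were picked by hand with earlier results of these data known, so these shares describe the lists and are no test. Of the 8 markers of mature oligodendrocytes 4 fell, and the other 4 were lower without passing, with summed CaKO levels of 36676 to 44835 normalised counts per library. Of the 8 markers of excitatory neurons 5 were lower and 2 of these fell (Cck and Nrgn), while Camk2a did not pass (log2 fold change -0.20, adjusted p = 0.316, from the authors' deposited table). Of the 6 genes listed for oligodendrocyte precursors, Gpr17, Bcas1 and Olig1 fell. Pdgfra, Cspg4 and Olig2 have no row, so this list does not show that precursors themselves were lower. Of 7 astrocyte markers 3 were lower and 2 fell, of 4 of endothelium 2 were lower and 1 fell, and of 4 of red blood cells 3 were lower and 1 fell. None of the 6 markers of inhibitory neurons had a row, 1 of 6 of microglia (Trem2) was higher without passing, and 0 of the 25 markers with a row were at 0 in any CaKO library. Their part in the differences of the trafficking genes was not tested.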

How the data were processed

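RNA from the mPFC of 4 CaKO and 4 control mice was sequenced as poly-A-selected 100 bp paired-end libraries, per the labels' protocols. Per the submitters' processing notes, the authors aligned reads to GRCm38 (mm10) with TopHat2 2.0.12, counted them with HTSeq 0.6.1 and used DESeq2 1.30.1. The deposited library values are a signal, read counts that the authors divided by 1 factor per library: within 0.01, 100% were whole multiples of a step (from 0.9941 to 1.042). The authors also deposited the log2 fold changes, p-values and adjusted p-values. All 18 rows at 0 in every CaKO library have negative fold changes, so the direction is CaKO over control.

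Adjusted values below 1 follow Benjamini-Hochberg over 12938 genes (largest relative difference 0.005), and 325 rows listed at 1 were treated as left out. The planned fit over both groups was not run, since the control values were not analysed here. The authors' adjusted p (threshold 0.05) gave the calls, "rose" and "fell" refer to them, and "listed" means an unadjusted p below 0.05 within the adjustment.

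Of the 2372 rows, 2266 matched GENCODE M21 exactly, 89 by a unique same-strand gene at 80% mutual overlap, and 17 did not match. The implied SE assumes a Wald test. Leaving out a library was approximated from the implied control level, with the SE widened for 3 against 4. Overlap was exon sequence shared with another gene (20% or more was counted as shared reads), and near-identical copies came from BLAST 2.17.0 (98% identity over at least 200 bp and 50% of a transcript, at another locus). The number of genes in the adjustment, the implied SE and the fold change without a library were checked on simulated data. The p without a library was not checked there. Named genes were all called members, up to 6 others per family by p, and from each list the calls or the smallest p; Arl3, Tbc1d24, Prelid1, Stx12, Ap2a2, Map1lc3b, the named cell type markers and the genes left out of the adjustment were added after their values were seen. The members and lists were chosen with earlier results of these data known.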

Additional observations from a re-analysis of the deposited data

Results flagged for a closer look

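A library stood apart from the other 3 of its group in 2 of the 35 members, by Dixon's test at the 95% level. Trappc1 had 399 normalised counts in CaKO replicate 1, against 295 to 308 in the others. Vps36 had 328 in CaKO replicate 4, against 416 to 429 in the others. Chance alone marks about 1 in 20 such groups.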

How the results depend on the processing

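No paired analysis was possible because the control libraries, which share replicate numbers with the CaKO libraries, have no values here. The calls among members (2 higher, 1 lower) became 5 and 4 at an adjusted p below 0.1 and 0 and 0 below 0.01. With rows matched by overlap they were 2 and 2, the added gene being Arl3. Without members that share exon sequence or a copy, 1 higher call was left, since Tbc1d17 overlaps Il4i1. Leaving out a CaKO library gave 0 to 2 higher and 0 to 1 lower calls, with both at 0 without replicate 3. Leaving out the genes that do not act in traffic changed no call. With the precision of 3 CaKO libraries and the fold changes unaltered, an alternative chosen after seeing the data, 1 higher and 0 lower member calls and 1 call in the other trafficking lists were left. Members with a row numbered 21 higher and 14 lower, 19 and 13 in the adjustment, and 19 and 12 at a CaKO mean of at least 100 normalised counts. The median coefficient of variation was 12.4%, and 13.2% or 13.7% with other scalings. Calls in the other trafficking lists went from 6 to 10 at an adjusted p below 0.1. Where no cause is named here, it was not tested. The controls' spread is not visible, so these values limit only what the CaKO libraries contribute.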
